A study of Danio rerio with 18 samples.

Results

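The comparison described here sets caudal fins of zebrafish lacking s1, a regeneration-associated silencer, against fins of wild-type (WT) siblings at 4 days post amputation (dpa). It was made gene by gene in a table of normalised read counts, over genes that reached a value of at least 10 in at least 3 of the 6 libraries of that day. Of 32520 gene IDs, 21426 met this rule, in 6 of the 18 libraries of the series. The knockout (KO) libraries came from homozygotes derived from the outbred Ekkwill (EK) strain, and the WT libraries from their siblings. All fish were between 4 and 8 months old, and fins were cut at 50% of their length. Each group had 3 libraries, each from clips of 10 fish pooled, so differences between single fish were not measured. The series also holds fins of both genotypes at 0 dpa (freshly cut) and 1 dpa, with 3 libraries per group, which are used here for comparison. The deleted element is non-coding and the labels give no position for it, so the deletion itself could not be checked in these values.

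A silencer is a regulatory DNA element through which bound proteins hold down the transcription of a gene. After a fin is cut, epidermis closes the wound, cells of the stump form a proliferating mass called the blastema, and the blastema then grows out while osteoblasts lay down new bony rays. At 4 dpa the regenerate is in this outgrowth phase. Teneurins are large transmembrane proteins that bind latrophilins and each other across the gap between cells, and they are best known from the wiring of neurons.

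Normalised counts were dominated by a few features. The 5 most abundant gene IDs held 87.5% to 90.5% of reads in the WT libraries of 4 dpa and 79.0% to 82.9% in the KO libraries, so that 10.5 M to 10.9 M reads (M, 1e6) in WT and 16.4 M to 19.7 M in KO fell on all other genes. A gene with 1 read had a normalised count of 2.47 to 2.49 in WT and 1.12 to 1.35 in KO. Genotype and this share cannot be told apart at 4 dpa, because the ranges do not overlap. Spearman correlations across genes were 0.972 to 0.979 among WT libraries, 0.984 to 0.986 among KO libraries and 0.975 to 0.983 between genotypes. Replicates differed by far more than counting error (chi-square per degree of freedom of at least 46.1). This statistic includes the 5 most abundant gene IDs and cannot tell separate pools from repeated preparations of 1 pool. All 6 were counted as separate samples, as the labels list them. Markers of basal epidermis (krt5, TP63), outer epidermis (krt4), blastema and fin-fold fibroblasts (msx1b, and1) and osteoblasts (SP7, RUNX2) were present in all 6. The lens gene cryaa was at 0 in all 6. Other markers of tissues outside the fin had low values, with higher means in KO. For the liver gene fabp10a every KO library was above every WT library, the lowest of them only slightly. Its means were 3.31 in WT and 10.6 in KO. For the germ line gene ddx4 the means were 0 in WT and 3.45 in KO. The KO libraries had 2.24, 0 and 8.12 for ddx4, so its groups overlapped. Neither gene met the rule for testing.

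Most genes had similar normalised counts in both genotypes. The median log2 difference (KO minus WT, on log2 of the normalised count plus 1) was 0.01. The size factors behind these counts hold this median near 0. With values scaled to the reads outside the 5 most abundant genes it was 0.28. As normalised, 88% of genes differed by at most 0.5 either way. The 5th percentile of the difference was -0.56 and the 95th percentile 0.55. limma, fitted with a trend to all 18 libraries, called 6 genes at a Benjamini-Hochberg adjusted p under 0.05, which is 0.028% of those tested, with 3 higher and 3 lower in KO. An unadjusted p under 0.05 was reached by 740 genes (3.45%), 371 higher and 369 lower. edgeR's quasi-likelihood test on whole reads called 3 genes (0.014%) and DESeq2 called 17 (0.0793%).

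**Figure D1:**
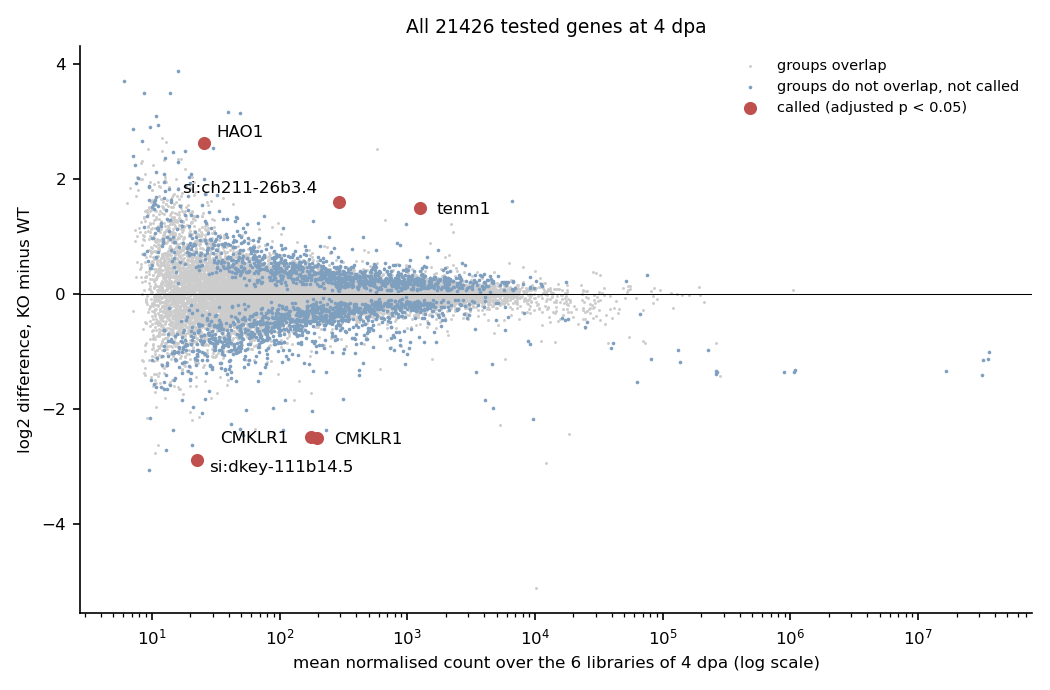
Log2 difference between KO and WT at 4 dpa (vertical axis) against the mean normalised count of the 6 libraries (horizontal axis, log scale) for all 21426 tested genes. Red points are the 6 called genes, blue points are other genes whose KO and WT libraries do not overlap, and the differences spread more widely at low counts.

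The groups did not overlap for 2335 genes (10.9%), with KO above WT in 1161 (5.42%) and below in 1174 (5.48%). The share changed little with the level of a gene. It was 10.9% of 4461 genes with a mean of 10 to 50, 11.14% of 10404 genes with a mean of 50 to 500, 10.24% of 5950 genes with a mean of 500 to 5000 and 12.4% of 468 genes above that. The typical size of a difference did change with level, from a median of 0.37 (log2, either way) in the lowest of these ranges to 0.09 at means of 500 to 5000.

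The called gene with the most reads was tenm1, which encodes a teneurin. Its normalised counts were 732, 538 and 705 in the WT libraries and 1851, 1761 and 1924 in the KO libraries. Every KO library was above every WT library, and the 3 KO values lay close together. The mean rose from 658 ± 105 to 1845 ± 81.3 (SD, n = 3 each), a difference of 1.5 in log2 with a standard error (SE) of 0.17 (limma adjusted p = 0.00376). The call ended under 2 of the 22 alternative ways of fitting, without KO replicate 3 (adjusted p = 0.0524) and with values scaled to the reads outside the 5 most abundant genes (adjusted p = 0.139), and log2 stayed between 1.36 and 1.77.

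The same gene was called at both other times. At 0 dpa its mean was 920.4 in WT and 2272 in KO (log2 1.32, limma adjusted p = 0.0101), and at 1 dpa 435 in WT and 1860.5 in KO (log2 2.09, limma adjusted p = 3.32e-05). The WT mean was thus lower at 1 dpa than at 4 dpa, and the KO means of these days were 1860.5 and 1845. The difference at 4 dpa minus that at 1 dpa was -0.60 (SE 0.24), with an unadjusted p = 0.0260 in the fit of all genes and an adjusted p = 0.999.

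Also higher was si:ch211-26b3.4, a gene without a descriptive name. Its normalised counts were 151, 125 and 153 in WT and 455, 436 and 418 in KO. The groups were far apart, and the values of each genotype lay close together. The difference was 1.61 in log2 (SE 0.24, limma adjusted p = 0.0241). The call ended with edgeR (adjusted p = 0.0536), with limma-voom (adjusted p = 0.377) and without any 1 of 5 libraries in turn, WT replicate 1 being the exception. It was called at 0 dpa too (log2 2.16, limma adjusted p = 0.0027) and had the same sign at 1 dpa (log2 1.06, limma adjusted p = 0.592). In the gene order of the RefSeq annotation it lies 21 placed genes from tenm1. Only 13710 of the 21426 tested genes could be placed, by a symbol that belongs to 1 ID, so others may lie between. Among the 5 placed genes on each side of tenm1 none was called and log2 ran from -0.32 to 0.27. Among the 30 on each side, a width chosen after the values were seen, the groups did not overlap for 16 of 60 (26.7%, against 10.9% of all tested genes), 8 above WT and 8 below.

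HAO1, a gene for the peroxisomal enzyme that turns glycolate into glyoxylate, was also higher. Its normalised counts were 4.95, 4.98 and 9.89 in WT and 44.7, 37.7 and 51.4 in KO. In whole reads these were 2, 2 and 4 against 40, 29 and 38, so the WT values rest on 8 reads in all. KO was 6.73-fold higher by pooled reads, with a 95% exact interval of 3.3 to 16 for counting error only. HAO1 is 1 of the 63 genes that reached a value of 10 in KO only, so it entered the test at 4 dpa through the group where it is high. The log2 difference was 2.63 (SE 0.38, limma adjusted p = 0.0208, and 0.0136 with no filter on low values). The call ended under 9 of 21 alternatives, among them edgeR (adjusted p = 0.0967), limma-voom, the 6 libraries of 4 dpa fitted alone, and without WT replicate 2 or any 1 of the KO replicates.

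At earlier times the genotypes had similar values of HAO1. The WT means were 20.6 at 0 dpa, 24.3 at 1 dpa and 6.61 at 4 dpa, and the KO means 22.9, 29.2 and 44.6. The genotypes therefore overlapped at 0 dpa (log2 0.09) and 1 dpa (log2 0.28) and were apart at 4 dpa. The difference at 4 dpa exceeded that at 0 dpa by 2.55 (SE 0.53, unadjusted p = 0.0002 in limma) and that at 1 dpa by 2.35 (SE 0.53, unadjusted p = 0.000426), and neither passed adjustment over all genes (limma adjusted p = 0.993 and 0.999). HAO1 was picked for its values at 4 dpa, which both contrasts use again. Their unadjusted p-values are therefore too small to be read as a separate test.

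The lower genes were led by a pair of copies annotated CMKLR1, which in mammals encodes a receptor of the chemoattractant chemerin that is carried by macrophages and dendritic cells. The copy ENSDARG00000109654 had normalised counts of 341, 429 and 239.9 in WT and 58.1, 68.8 and 46.0 in KO. The copy ENSDARG00000110362 had 299, 419 and 190.4 in WT and 58.1, 61.0 and 36.5 in KO. In both, the lowest WT library was far above the highest KO library. They fell by 2.50 (SE 0.36, limma adjusted p = 0.0208) and 2.48 (SE 0.37, limma adjusted p = 0.0236) on the log2 scale.

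The ratio of the 2 copies was between 0.794 and 1.14 in all 18 libraries, so reads may be shared between them and they may not be separate differences. Both were called lower at 0 dpa (log2 -2.57 and -2.40, limma adjusted p = 0.0112 and 0.0141) and had log2 of -1.86 and -1.71 at 1 dpa without a call. Another copy, ENSDARG00000090890, did not share the pattern. It had 430, 476 and 601 in WT and 511, 447 and 498 in KO (log2 -0.04, unadjusted p = 0.91 in limma), so its groups overlapped. The calls of both lower copies ended without WT replicate 2, without any of the 3 KO replicates in turn, with limma-voom and with scaling to the reads outside the 5 most abundant genes.

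The lowest KO levels of a called gene were those of si:dkey-111b14.5, which has no descriptive name. Its normalised counts were 64.3, 32.4 and 24.7 in WT and 6.71, 3.90 and 2.71 in KO. The KO values stand for 6, 3 and 2 reads. WT was 8.85-fold higher by pooled reads (95% exact interval 4.54 to 18.9, counting error only), and the gene fell by 2.88 in log2 (SE 0.45, limma adjusted p = 0.0294, and 0.0215 with no filter on low values). It is 1 of the 12 genes that reached 10 in WT only, so it too entered the test through the group where it is high. It was called lower at 0 dpa as well (log2 -2.57, limma adjusted p = 0.0346), and the call at 4 dpa ended under 11 of 21 alternatives, among them edgeR (adjusted p = 0.0967) and leaving out any library other than WT replicate 3.

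**Figure D2:**
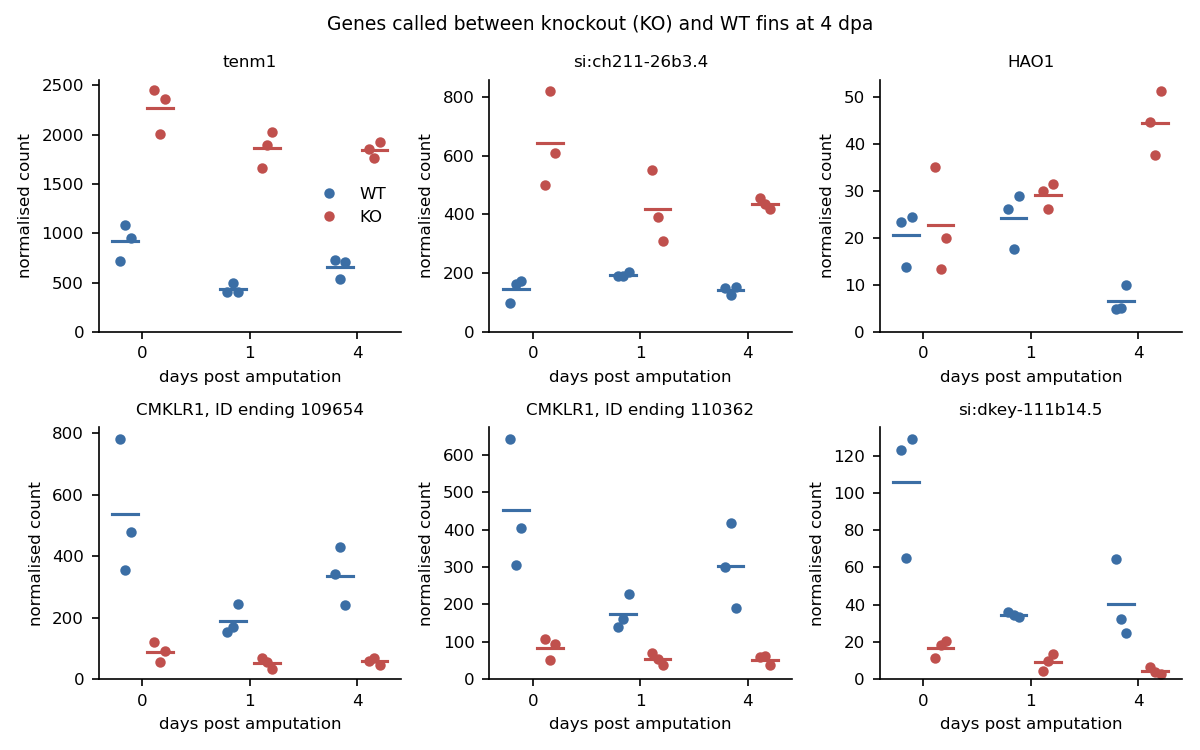
Normalised counts (vertical axes, from 0) of the 6 genes called at 4 dpa in every library at 0, 1 and 4 dpa; points are libraries and short lines are means of 3. For HAO1 the genotypes overlap at 0 and 1 dpa and are apart at 4 dpa, with 4.95 to 9.89 in WT and 37.7 to 51.4 in KO, whereas the others keep the order of the genotypes at all times.

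Of the 6 called genes, 5 were also called at 0 dpa, where 23 of the same 21426 genes passed (0.107%), and 1 was called at 1 dpa, where it was the sole gene to pass (0.00467%). Whether the genotype difference at 4 dpa itself differed from the earlier ones was tested as an interaction. limma called 0 genes against 0 dpa, with 801 at an unadjusted p under 0.05 (3.74%), edgeR 0 and DESeq2 2. Against 1 dpa limma called 0 genes, with 508 at an unadjusted p under 0.05 (2.37%), and edgeR and DESeq2 0 each. Of the 740 genes at an unadjusted p under 0.05 at 4 dpa, 424 (57.3%) had the same sign at 0 dpa and 389 (52.6%) at 1 dpa, beside 51% and 49.7% of all tested genes.

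Next to the called genes stood 15 named genes that did not pass limma's test, the 8 higher and 7 of the 8 lower with the smallest p among those that had groups apart, averaged at least 20 and carried a descriptive name. Their limma adjusted p ran from 0.261 to 0.798, so their values are given as a description. DESeq2 called 4 of the 15, namely angptl2a (adjusted p = 0.00359), NSMF (0.0494), DMRT1 (0.0114) and plp1b (0.0114), and edgeR called 0. Without WT replicate 1 limma called camta1 (adjusted p = 0.0322) and c3a.6 (0.0242). Among the higher ones, angptl2a, which encodes a secreted angiopoietin-like protein, had 1145, 1022 and 1187 in WT and 1859.9, 1602 and 1822 in KO. The KO values of this gene were all well above those of WT, with a log2 difference of 0.65 (SE 0.14). NSMF, which in rodents links synaptic NMDA receptors to the nucleus, had 153, 164 and 171 in WT and 309.6, 392 and 284 in KO. SLC16A12, a creatine transporter gene in mammals, had 698, 314 and 851 in WT and 1407, 1153 and 1456 in KO. WT replicate 2 was the low value of SLC16A12. Smaller counts were behind the complement gene c3a.6 (means 26.4 and 65.6), the calmodulin-binding transcription activator gene camta1 (means 26.4 and 63.2), bbof1b, named for a role in orienting basal bodies (means 33.0 and 78.7), loxl5b, from the family of enzymes that cross-link collagen (means 42.2 and 82.1), and rab44, a Rab GTPase gene (means 72.7 and 134).

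Among the lower ones, YTHDC2, which encodes an RNA helicase that reads methylated adenosine, had 1108, 1226 and 1118 in WT and 689, 739 and 776 in KO. The WT and KO values were each tight, and log2 was -0.65 (SE 0.17). lpcat4, a gene of phospholipid remodelling, had means of 355 and 208. DMRT1, a transcription factor of testis development, had 566, 234 and 218 in WT and 98.4, 143 and 120.4 in KO. plp1b, which encodes a myelin proteolipid, had 94.0, 19.9 and 14.8 in WT and 6.71, 7.79 and 5.41 in KO. WT replicate 1 was the highest library for both, and for plp1b it held most of the WT reads. plp1b reached 10 in WT only. The remaining lower genes were the melanopsin gene opn4xa (means 79.3 and 35.5), FAM131C (means 56.2 and 21.2) and GRTP1, a Rab GTPase-activating protein gene (49.5, 34.9 and 39.6 in WT and 8.94, 10.4 and 13.5 in KO). Of the 15, 11 had the same sign at 0 dpa and 11 at 1 dpa.

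**Figure D3:**
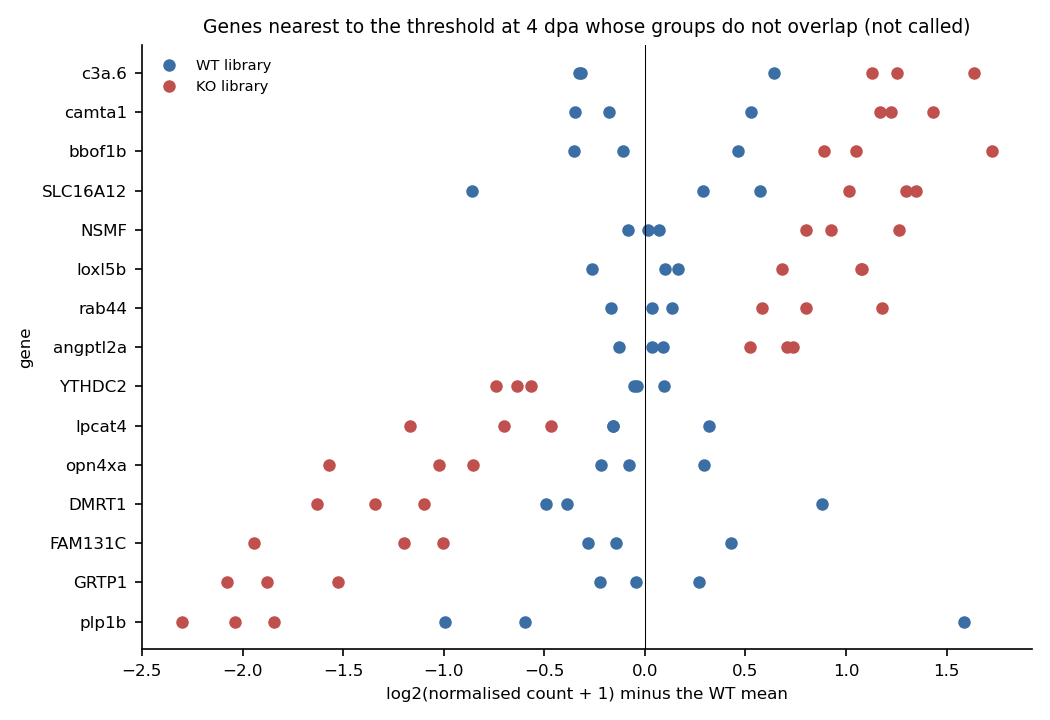
Values of the 15 named genes that did not pass limma's test (DESeq2 called 4 of them), as log2(normalised count + 1) minus the WT mean (horizontal axis), with a blue point for each WT library and a red point for each KO library. In every row all red points lie on the same side of the blue ones, because the genes were picked for groups that do not overlap. WT replicate 1 stands far to the right for plp1b and DMRT1.

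Gene lists for the tissue and for the called genes were then read for counts and medians, with no test of a list. Counts of members whose groups do not overlap are to be read against 5.42% of all tested genes above WT and 5.48% below, and counts with log2 above 0 against 51.1%. For these bulk clips, fewer cells of a type and less RNA per cell cannot be told apart. Of the 35 lists, 23 had a median that changed sign when 1 library was left out, and all 23 had medians of at most 0.115 either way.

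Of 20 measured teneurins, latrophilins and their partners, tenm1 was the 1 member called (0.028% of all tested genes were called). The other teneurin genes were measured well and had small differences. tenm3 had 5704, 6169 and 5953 in WT and 6169.8, 6054 and 6820.5 in KO (log2 0.09, SE 0.16), and the copies of TENM2, TENM3 and TENM4 had log2 from -0.23 to -0.01. The latrophilin genes ADGRL1, ADGRL2 and ADGRL3, receptors that bind teneurins, had log2 from -0.11 to 0.06, and adgrl2b.1, at low counts, 0.48 (SE 0.66). Among the FLRT and UNC5 genes, which encode further partners of latrophilins and netrin receptors, a copy of UNC5D had 467, 426 and 435 in WT and 345, 377 and 387 in KO (log2 -0.26, unadjusted p = 0.085 in limma), and a copy of FLRT2 had log2 0.34. The list median was 0.00.

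HAO1 was the 1 called member of 45 peroxisome and glyoxylate genes, with 6 above WT, 3 below and a median of 0.00. A few of the other members are given by role, chosen after their values were seen. DAO, which encodes D-amino acid oxidase and yields glyoxylate from glycine, had 22.3, 17.4 and 22.3 in WT and 2.23, 11.7 and 8.12 in KO (log2 -1.58, unadjusted p = 0.00573 in limma). AGXT, which turns glyoxylate into glycine, had means of 39.7 and 20.7 with overlapping groups, and GRHPR, which reduces glyoxylate, means of 134 and 100.0 with groups apart. The peroxisome assembly genes PEX13 and PEX19 were above WT in every library (log2 0.42 and 0.55) and PEX11A, which drives peroxisome division, was below (log2 -0.76), with unadjusted p of 0.0237 to 0.136 in limma. scp2a, a sterol carrier gene with a peroxisomal product, had 559, 518 and 477 in WT and 638, 668 and 713 in KO. Of 47 mitochondrial carriers, 5 were above WT and 4 below (median 0.04). Among them a copy of SLC25A15, an ornithine carrier gene, had 59.4, 72.3 and 86.6 in WT and 24.6, 41.6 and 48.7 in KO (log2 -0.95, unadjusted p = 0.00389 in limma), and SLC25A26, the S-adenosylmethionine carrier gene, log2 -0.32 with groups apart.

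The macrophage list of 27 genes held both lower CMKLR1 copies as its called members. Of the 25 others, 17 were below 0, 3 were below WT and 2 above, and their median was -0.10. This median was -0.06 without KO replicate 3, -0.15 without WT replicate 1, -0.19 with the share of the 5 most abundant genes as a covariate, and -0.11 relative to all genes under the scaling to reads outside those 5, which moved all genes up by 0.28. The summed level of all 27 was 41181 to 51740.0 in WT and 30511 to 38455 in KO, without overlap. Most of that sum was cd74a, an antigen presentation gene, with 34943, 28705 and 23974 in WT and 21434, 22995 and 15036 in KO (log2 -0.57, unadjusted p = 0.122 in limma). The macrophage pore gene MPEG1 did not share the direction clearly, with log2 of -0.10 and -0.06 in its copies and overlapping groups. The part of macrophage number in the values of CMKLR1 was not tested.

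Of 26 chemerin and chemoattractant receptor genes, 4 were below WT, both called CMKLR1 copies among them, and 1 above. PTAFR, the receptor of platelet-activating factor, had 173, 187 and 176 in WT and 126, 112 and 111 in KO (log2 -0.62, unadjusted p = 0.00421 in limma), with tight groups that were apart. C3AR1, the receptor of complement fragment C3a, was above WT in every library (means 15.7 and 36.5). Other immune lists stayed near 0. Medians were 0.02 for 20 neutrophil genes, -0.04 for 16 lymphocyte genes, -0.03 for 34 inflammatory cytokines and STAT3 targets and -0.04 for 22 antigen presentation genes, with 1 to 3 members apart in each. Within them cxcl8b.1, a neutrophil-attracting chemokine gene, was below WT (log2 -1.17, unadjusted p = 0.061 in limma).

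The 35 interferon response genes had a median of 0.11 with 26 above 0, but the median was -0.01 without KO replicate 1. Among them isg15, whose product is coupled to other proteins much as ubiquitin is, went the other way. It had 331, 299 and 232 in WT and 101, 46.8 and 70.34 in KO. Every KO library was far below every WT library, and log2 was -2.02 (SE 0.58, unadjusted p = 0.0031 in limma), which did not pass adjustment at 4 dpa. Under 3 of the 23 settings limma called it at 4 dpa, with a lowest adjusted p of 0.00725. These were the 6 libraries of 4 dpa fitted alone, the same with reads thinned to equal depth, and libraries of at least 20% share. It was called lower at 0 dpa (log2 -3.20, limma adjusted p = 0.0451), and log2 was -2.18 at 1 dpa without a call. In the RefSeq gene order it lies 17 placed genes from tenm1, on the side opposite to si:ch211-26b3.4.

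**Figure D4:**
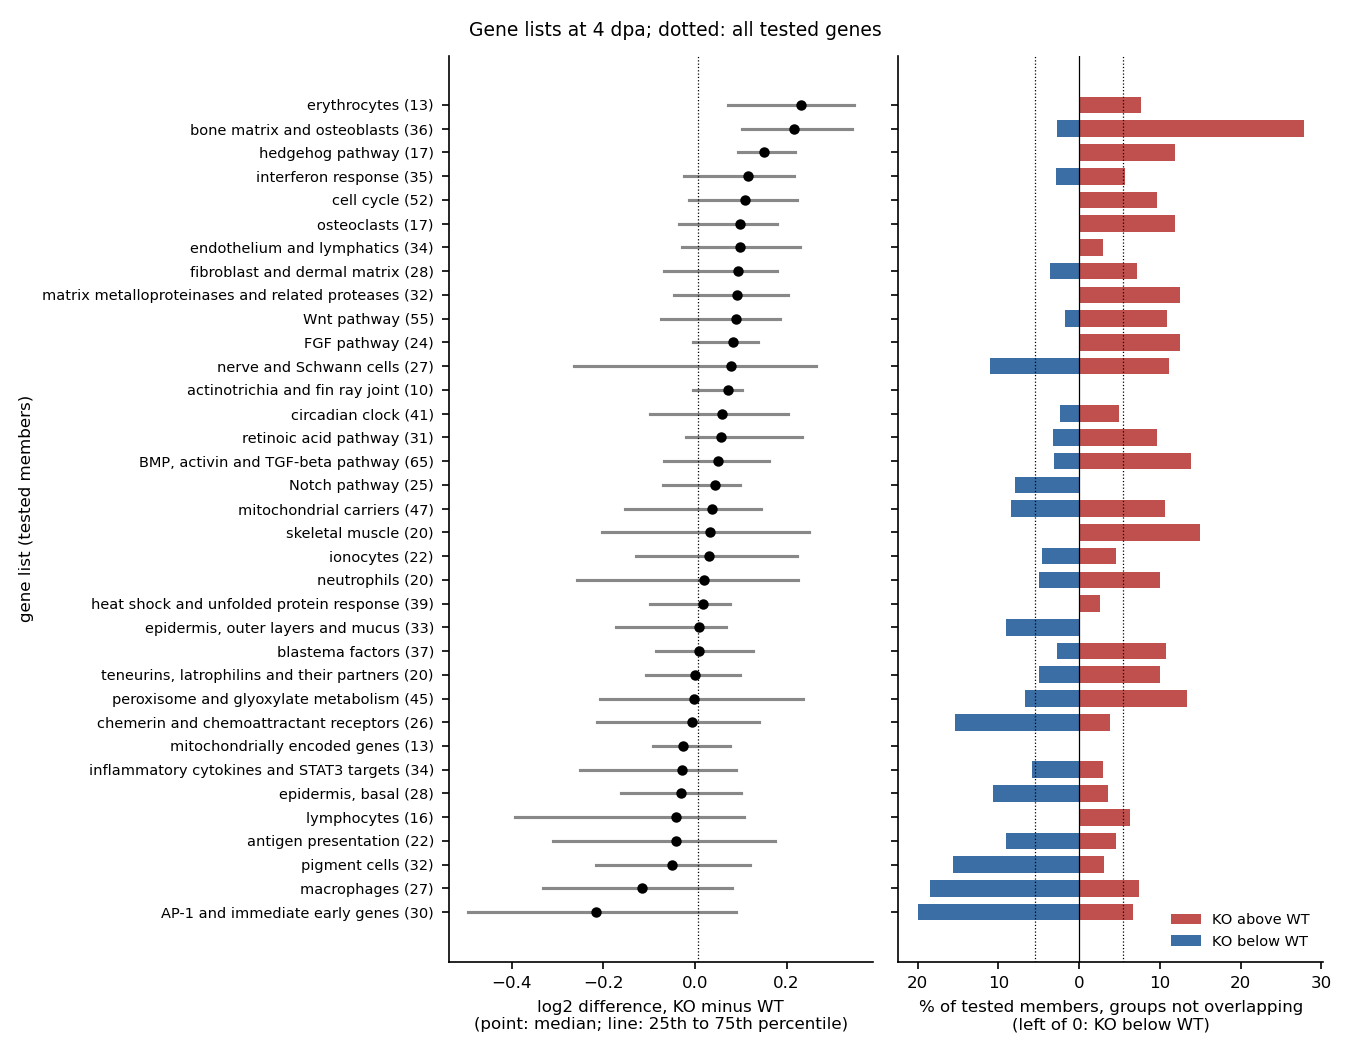
Left, median (point) and middle 50% (line) of the log2 difference between KO and WT at 4 dpa for the members of each gene list; right, percentage of members whose KO libraries all lie above (red) or below (blue) all WT libraries, with dotted lines for all tested genes. Bone matrix and osteoblast genes have the highest share above WT (27.8%) and AP-1 and immediate early genes the highest share below (20%).

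Of the lists of tissues and processes, bone stood highest in counts. Of 36 measured bone matrix and osteoblast genes, 0 passed limma's test and 5 had an unadjusted p under 0.05 (edgeR and DESeq2 likewise called none of its members), while 33 had log2 above 0 (91.7%, against 51.1% of all genes), 10 were above WT and 1 below. At least 1 of the 5, also among the 10, reached a value of 10 in KO only. It thus entered the test through the group where it is high. The median of the list was 0.22, and 0.21 relative to all genes under the scaling to reads outside the 5 most abundant genes. Without WT replicate 1 it was 0.13. At 0 and 1 dpa the medians of the same list were -0.14 and -0.18.

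Genes of bone formation carried these values. PHEX, a peptidase gene needed for mineralisation, had 670.3, 792 and 670.3 in WT and 1052, 1008 and 979 in KO (log2 0.51, SE 0.15, unadjusted p = 0.00368 in limma). SP7, the transcription factor that commits cells to the osteoblast fate, had 542, 757 and 699.96 in WT and 837, 1051 and 952 in KO (log2 0.51, SE 0.19). In both, the lowest KO library was above the highest WT library. A copy of MEF2C, a transcription factor of cartilage and bone, had 1069, 1193 and 1024 in WT and 1529, 1456 and 1530 in KO. CDH11, the osteoblast cadherin gene, had 2359.7, 2315 and 2329.9 in WT and 3086, 2695 and 2852 in KO. PANX3, a channel gene of osteoblasts, RUNX2, tnn and a copy of BGN, a small proteoglycan of bone matrix, were also above WT in every library, with log2 from 0.21 to 0.32. The collagen genes COL1A1 and COL1A2, which make the bulk of bone matrix, had log2 of 0.02 and 0.07. The member below WT was mgp, an inhibitor of calcification, with 69.3, 39.9 and 56.9 in WT and 22.4, 35.07 and 24.3 in KO.

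Immediate early genes, among them those of the AP-1 transcription factor, are switched on shortly after a stimulus, and their list stood lowest. Of 30, 0 passed limma's test (edgeR and DESeq2 called none). An unadjusted p under 0.05 in limma was reached by 4, of which 3 were lower and 1 higher in KO. In the whole list 22 were below 0, 6 were below WT and 2 above. The median was -0.22. Under the scaling to reads outside the 5 most abundant genes it was 0.06, and -0.22 relative to all genes. At 0 and 1 dpa the medians of this list were -0.19 and 0.24. ATF3, a stress-induced transcription factor gene, had 64.3, 54.8 and 49.5 in WT and 22.4, 20.8 and 32.5 in KO (log2 -1.14, unadjusted p = 0.00971 in limma). egr2a had 39.6, 24.9 and 42.0 in WT and 17.9, 18.2 and 13.5 in KO. For egr1, a zinc finger gene induced by growth signals, values were 2251, 1772 and 2543 in WT and 1276, 1579 and 1589.5 in KO. A copy of JUNB and ier2b were also below WT (log2 -0.44 and -0.71). klf2a, a gene induced by fluid flow, went the other way, with 2503, 1532 and 7415 in WT and 10359, 8846 and 9127 in KO. Its log2 was 1.63, with the smallest p of the list (unadjusted p = 0.00179 in limma). limma called klf2a without WT replicate 3 (adjusted p = 0.0265). WT replicates 1 and 2 were low for klf2a, and the clock gene nr1d2a showed the same order, with 1148, 548 and 2886 in WT and 2684, 2770.5 and 3075 in KO.

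**Figure D5:**
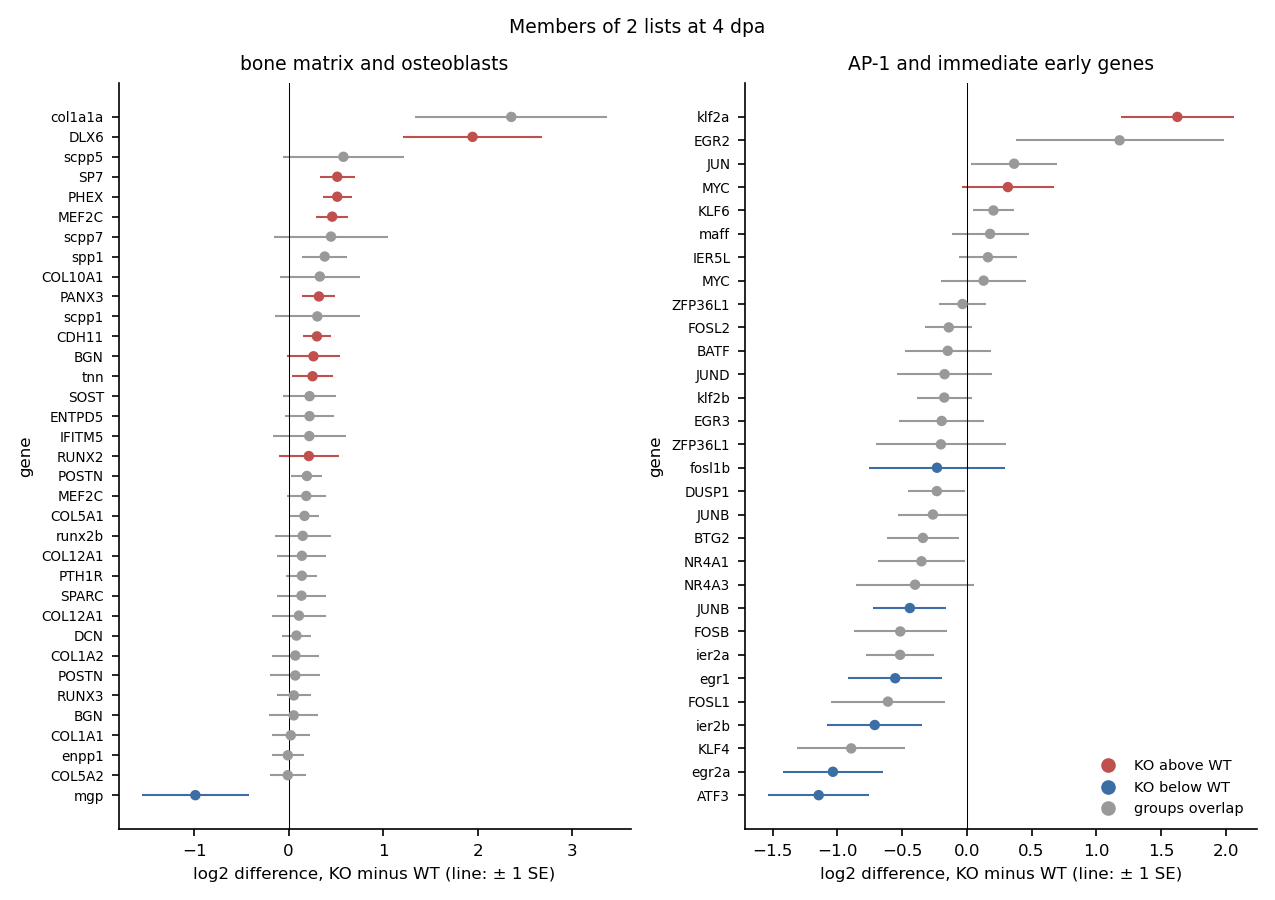
Log2 difference between KO and WT at 4 dpa (point) with 1 SE either way (line) for 35 of the 36 measured members of the bone list and for each member of the AP-1 and immediate early gene list; repeated names are copies. Of the bone genes drawn, 32 of 35 lie right of 0 with mgp far to the left, and of the immediate early genes 22 of 30 lie left of 0 with klf2a far to the right; limma, edgeR and DESeq2 called none.

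Pathways of outgrowth differed little. Of 17 hedgehog genes, which in the fin guide the branching of rays, 15 were above 0 (median 0.15, and 0.05 without WT replicate 1). SUFU, an inhibitor of GLI factors, had 709.9, 703 and 794 in WT and 987, 1047 and 873 in KO (log2 0.40, unadjusted p = 0.00685 in limma). Of 55 Wnt pathway genes, 6 were above WT and 1 below (median 0.09). A copy of SFRP1, which encodes a secreted Wnt antagonist, had 608, 698 and 574 in WT and 1204, 1104 and 1093 in KO, with the groups far apart (log2 0.86, SE 0.32, unadjusted p = 0.0168 in limma). Its log2 was 0.67 at 0 dpa and 0.80 at 1 dpa. Under 3 of the 23 settings limma called it, with a lowest adjusted p of 0.0183. These were the 6 libraries of 4 dpa fitted alone, the same with reads thinned to equal depth, and libraries of at least 20% share. Medians were 0.08 for 24 FGF genes (3 above WT, 0 below), 0.05 for 65 BMP, activin and TGF-beta genes (9 above, 2 below), 0.04 for 25 Notch genes (0 above, 2 below) and 0.06 for 31 retinoic acid genes (3 above, 1 below). Among the last, ALDH1A2, which makes retinoic acid in the stump, had 267, 229 and 247 in WT and 172, 125 and 246 in KO, with overlap, and a copy of TGM2, a retinoic acid target, was above WT (log2 0.77). No member of these 6 lists passed limma's test in the fit of all 18 libraries, and edgeR and DESeq2 called none either.

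Blastema, matrix and epidermis were close between genotypes. The 37 blastema genes had a median of 0.01, with 4 above WT and 1 below. Among them a copy of PRRX1, a mesenchymal transcription factor gene, had 1524, 1801 and 1984 in WT and 2413, 2382 and 2090 in KO (log2 0.38), and msx1b had log2 -0.01. The 10 genes of actinotrichia, the fin-fold fibrils, and of ray joints had a median of 0.07 with 0 members apart. Of 32 matrix metalloproteinases and related proteases 4 were above WT (median 0.09), and of 28 fibroblast and dermal matrix genes 2 were above and 1 below (median 0.09). Basal epidermis (28 genes, 1 above and 3 below, median -0.03), outer epidermis and mucus (33 genes, 0 above and 3 below, median 0.01) and ionocytes (22 genes, 1 above and 1 below, median 0.03) had medians near 0. hbegfa, an epidermal growth factor receptor ligand of the basal layer, had 411, 334 and 336 in WT and 232, 221 and 248 in KO (log2 -0.62, unadjusted p = 0.0908 in limma).

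The 52 cell cycle genes had a median of 0.11, with 38 above 0, 5 above WT and 0 below, and the median was 0.00 without WT replicate 1. Their largest difference was in HMGB2, at low counts (means 13.2 and 32.1, unadjusted p = 0.021 in limma). The erythrocyte list of 13 genes behaved alike, with a median of 0.23 that was 0.01 without WT replicate 1, and 1 member above WT. Osteoclast genes (17, 2 above WT, median 0.10), endothelium and lymphatics (34, 1 above, median 0.10), heat shock and unfolded protein response (39, 1 above, median 0.02), the circadian clock (41, 2 above and 1 below, median 0.06) and mitochondrially encoded genes (13, 0 apart, median -0.03) gave no further calls.

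Pigment and nerve genes held members apart on both sides, and muscle genes only above WT. Of 32 pigment cell genes 5 were below WT and 1 above (median -0.05). They included XDH, of pteridine pigment synthesis (means 32.2 and 17.8), and GPNMB (272, 259 and 247 in WT and 154, 210.4 and 235 in KO), whereas the melanin synthesis gene DCT had means of 31.4 and 53.1 with overlap. Of 27 nerve and Schwann cell genes 3 were above WT and 3 below (median 0.08). Of 20 skeletal muscle genes 3 were above WT (median 0.03). An unadjusted p under 0.05 in limma was reached by 4, all with higher values in KO and low counts. A copy of TNNI2, a troponin gene, was among both the 3 and the 4. This copy reached 10 in KO only, so it entered the test through the group where it is high. ACTA1, skeletal actin, had 44.5, 74.7 and 54.4 in WT and 76.0, 118 and 78.5 in KO.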

How the data were processed

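Total RNA of pooled caudal fin clips was made into cDNA, cut and tagged with Tn5 transposase and sequenced from both ends (100 bp) with a DNBSEQ machine, per the labels' protocols. Per the submitters' processing notes, the tools were Trim Galore 0.6.7, cutadapt 3.5 and STAR 2.7.10 and the build was danRer11. Neither strand setting nor gene annotation is given in the sources used here, and overlapping and antisense genes cannot be told apart. The deposited table holds signal values, 1 for each gene in each library, which are read counts over that library's size factor. All values were whole multiples of 1 step within 0.001, which returned whole reads, and the inverse of each step equals the library's median-of-ratios size factor. Total reads at 4 dpa were 83.9 M to 111.3 M per library.

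Genes with a value of at least 10 in at least 3 of the 6 libraries of 4 dpa were tested. limma 3.58.1 (R 4.3.3) was fitted with trend to log2(value + 1) of all 18 libraries as 6 group means (12 residual degrees of freedom), with two-sided tests and Benjamini-Hochberg adjustment at 0.05 over the 21426 genes. Fold changes on this scale understate those of low genes. The p-values set each difference against the spread between libraries of a group, estimated over all 18 libraries and thus also from 0 and 1 dpa. KO was set against WT at each time, and the difference at 4 dpa against the earlier ones. Of the tested genes, 63 reached 10 in KO only and 12 in WT only. Alternatives included edgeR 4.0.16, DESeq2 1.42.0 and limma-voom on whole reads. Intervals on reads are exact and cover counting error only, since PCR reads are not independent molecules.

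A table of gene names gave symbols for 29201 of 32520 IDs, and many are those of the human gene. Of the tested genes, 2578 share a symbol with another and are called copies, whose reads may be split. Gene order came from RefSeq on GRCz12tu, another build, so it was used for neighbours alone. It placed 13710 tested genes, those with a symbol of 1 ID found there, and steps from tenm1 count these alone. The CMKLR1 copies share a symbol and were not placed. The comparison, the 35 gene lists and the rule for named genes were chosen with earlier results of these data known. Of 1218 list entries, 68 found no ID, 851 were found by their own symbol, 285 through the symbol of a family and 14 through a synonym. The markers mpx and hbba1 found none. Named genes were all called genes, the 8 higher and 8 lower uncalled ones with the smallest p (groups apart, mean of at least 20, descriptive name), up to 4 members of each list with the smallest p, all teneurin list members, the 5 tested genes on each side of tenm1, and the markers. Some genes that this rule names are not reported here. Other members and a CMKLR1 copy were named after their values were seen.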

Additional observations from a re-analysis of the deposited data

Results flagged for a closer look

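For 6 named genes the KO and WT libraries were apart at 4 dpa in one direction and apart at an earlier time in the other. For lpcat4 log2 was -0.78 at 4 dpa and 0.35 at 1 dpa (interaction in limma, unadjusted p = 0.000526). For YTHDC2 it was -0.65 at 4 dpa and 0.27 at 0 dpa (unadjusted p = 0.00121). The copy of MEF2C had 0.46 at 4 dpa and -0.36 at 1 dpa (unadjusted p = 0.00334), and scp2a 0.38 and -0.28 (unadjusted p = 0.00306). The chemokine gene ccl38.6 had -1.04 at 4 dpa and 0.56 at 1 dpa (unadjusted p = 0.0298). A copy of TNNI2, a fast muscle troponin gene that at 4 dpa reached 10 in KO only, had 1.24 at 4 dpa and -1.04 at 0 dpa (unadjusted p = 0.00631). These genes were picked because the signs differ, and with limma's adjustment over all 21426 genes none of the 6 interactions passed (adjusted p of 0.993 or 0.999).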

How the results depend on the processing

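The count of called genes at 4 dpa, 6 as reported, moved with several choices. It was 11 with the 6 libraries of 4 dpa fitted alone, 11 with reads also thinned to equal depth, 17 with DESeq2, 3 with edgeR, 1 with limma-voom, 14 with no filter on low values, 13 with the share of the 5 most abundant genes as a covariate, 10 with libraries of at least 20% share (chosen after seeing the data) and 1 with scaling to reads outside those genes, which moved the median of all genes to 0.28. Leaving out each library gave 0 to 18 calls. These were 3, 2 and 0 without KO replicates 1, 2 and 3, and 18, 1 and 8 without WT replicates 1, 2 and 3. TMM scaling, pseudocounts of 0.5 and 10, robust moderation and filters at 50 or over 18 libraries gave 4 to 8. The interaction against 0 dpa gave 2 calls with DESeq2 and 1 with libraries of at least 20% share, and that against 1 dpa gave 3 with no filter. The other alternatives gave 0 for both interactions.

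Calls held in 21 of 23 settings for tenm1, 17 of 23 for both CMKLR1 copies, 16 of 23 for si:ch211-26b3.4, 13 of 22 for HAO1 and 11 of 22 for si:dkey-111b14.5. Over 54 genes and 22 alternatives no direction reversed, and of 1173 values 41 lost a call and 13 gained one. The 54 genes were chosen by small p in the same values, so the lack of reversals is no separate support for their direction.

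No shared effect of the replicate numbers was seen in the values. Same-numbered libraries had deviations correlated at 0.0035 to 0.017, and the fit with the number as a block gave 8 calls. These values cannot tell whether same-numbered pools were collected or prepared together. Depth limits low genes, since 3 reads stand for 7.42 to 7.47 in WT and 3.35 to 4.06 in KO.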

Other observations

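The 5 most abundant gene IDs, named here after their values were seen, were all lower in KO at 4 dpa without a call. These IDs were si:dkey-153m14.1, zgc:158463, ENSDARG00000116751, ENSDARG00000116076 and ENSDARG00000112702, with log2 from -1.41 to -1.01 and SE of 1.38 to 1.69. For zgc:158463 the WT values were 39287000, 56250000 and 47855000 and the KO values 23924000, 24902000 and 21835000. The groups were apart at 4 dpa for each of the 5 IDs. The SE comes from the fit of all 18 libraries, in which the share of these IDs ran from 2.71% to 90.5%.

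Some genes near the threshold rested on values at or close to 0 in 1 genotype, and these too were chosen after their values were seen. ENSDARG00000103358 was the 1 tested gene at 0 in all WT libraries, with 12.3, 11.7 and 12.2 in KO. stpg1 had 0, 4.98 and 0 in WT and 55.9, 13.0 and 23.0 in KO, and moto 9.89, 0 and 0 in WT and 17.9, 14.3 and 23.0 in KO. A copy of KLHL10, which in mice is needed in spermatids, had 12.4, 17.4 and 19.8 in WT and 0, 7.79 and 0 in KO. ENSDARG00000103358, stpg1 and moto reached 10 in KO only, and the KLHL10 copy in WT only. Each thus entered the test through the group where it is high. Each value stands for few reads, and none of these passed limma's adjustment over the tested genes. ENSDARG00000103358, moto and the KLHL10 copy were each called under 1 alternative, which is no separate support for them.

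WT replicate 1 held high values of genes that belong to different lists. The keratin gene krt1-19e had 17913, 4607 and 3233 in WT and 3799, 2444 and 2746 in KO. RBP4, the plasma carrier of retinol, had 18423, 8915 and 7156 in WT and 6114, 6027 and 5872 in KO. Neither had an unadjusted p under 0.05 in limma (0.0857 and 0.177).

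The enamel-type protease gene mmp20b, outside the lists and chosen after its value was seen, had 168, 212 and 195 in WT and 365, 391 and 262 in KO (log2 0.81, limma adjusted p = 0.81).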
